A study of Mus musculus with 8 samples.

Results

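The epicardium is the mesothelial sheet that covers the heart, and 10 genes that mark it were followed in ventricular heart of mouse embryos with and without functional ATF4. The genes were Wt1, Tbx18, Tcf21, Aldh1a2, Upk3b, Upk1b, Msln, Lrrn4, Krt19 and Sema3d. They were chosen by name, and all 10 were found among the 52778 features of the deposited table and had at least 1 TPM in at least 4 libraries, so all 10 were tested. TPM, a transcript abundance unit, scales each value for transcript length and library size, so levels of different genes can be set side by side. The 4 control libraries carry the genotype label C57BL/6 WT. The 4 mutant libraries come from embryos homozygous for the Atf4(del7/del7) allele, made with CRISPR/Cas9, which lacks 7 bases of exon 3, shifts the reading frame and keeps the polyadenylation signal. Both groups were collected at embryonic day 11.5 without any treatment. The allele is present in every cell of the embryo, so the labels do not tie its effect to the epicardium, and they do not say whether a library holds 1 heart or a pool.

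The epicardium arises from proepicardial cells that settle on the naked heart tube and spread over it at midgestation. It then feeds growth signals, among them those that depend on retinoic acid, to the myocardium beneath, and some of its cells undergo an epithelial to mesenchymal transition and become cardiac fibroblasts and mural cells of the coronary vessels. ATF4 is a transcription factor of the integrated stress response that turns on genes of amino acid supply, and no role of it in the epicardium is assumed here.

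Labels and libraries were checked first. Some label fields go against the design text, because the genotype field of the mutants also reads wild type and the extraction protocol speaks of cultured cortical neurons. The 10 cardiomyocyte markers summed to between 37517 and 40426 TPM in the 8 libraries, and 6 neuronal and neural crest markers to between 14.1 and 19.2 TPM. Atf4 transcript was at 112 ± 8.07 TPM (SD, n = 4) in controls and 166 ± 15.1 TPM (SD, n = 4) in mutants. Controls ran from 105 to 121 TPM and mutants from 148 to 185 TPM, without overlap, as in 3.68% of all genes tested. The mutants were 0.57 higher on the log2 scale (SE 0.071, limma adjusted p of 0.0430). That call held in only 1 of the 8 fits with a library left out. The level of the transcript does not show the deletion, so the genotype rests on the titles. Column totals ran from 923473 to 949762 TPM, read depth is unknown, and Pearson correlations between libraries on the log2(TPM + 1) scale ran from 0.98967 to 0.99154.

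For none of the 10 epicardial genes did a difference between genotypes pass the threshold after adjustment over all genes tested. At an adjusted p below 0.05 (limma, Benjamini-Hochberg over all 15545 genes tested) the count of epicardial genes was 0 of 10, where 6 genes in all, or 0.0386%, were called. At an unadjusted p below 0.05 it was 1 of 10, Tbx18, against 6.10% of all genes tested. The 4 mutant and 4 control values of each of the 10 genes overlapped. Of all genes tested 3.68% did not overlap, so a count of 0 of 10 is close to that background. The log2 fold change was negative for 6 genes and positive for 4, and its median was -0.039 against -0.0033 over all genes tested. Fold changes are differences of means on the log2(TPM + 1) scale, mutant minus control, and all p-values are two-sided. The mean log2(TPM + 1) of the 10 genes was 4.81 ± 0.053 in controls and 4.77 ± 0.064 in mutants (SD, n = 4 each). That difference of -0.040 is smaller than either SD, and with any 1 library left out it lay between -0.065 and -0.014. These values do not show a loss. In whole tissue, a change in the number of epicardial cells and a change in RNA per cell could not be told apart.

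**Figure D1:**
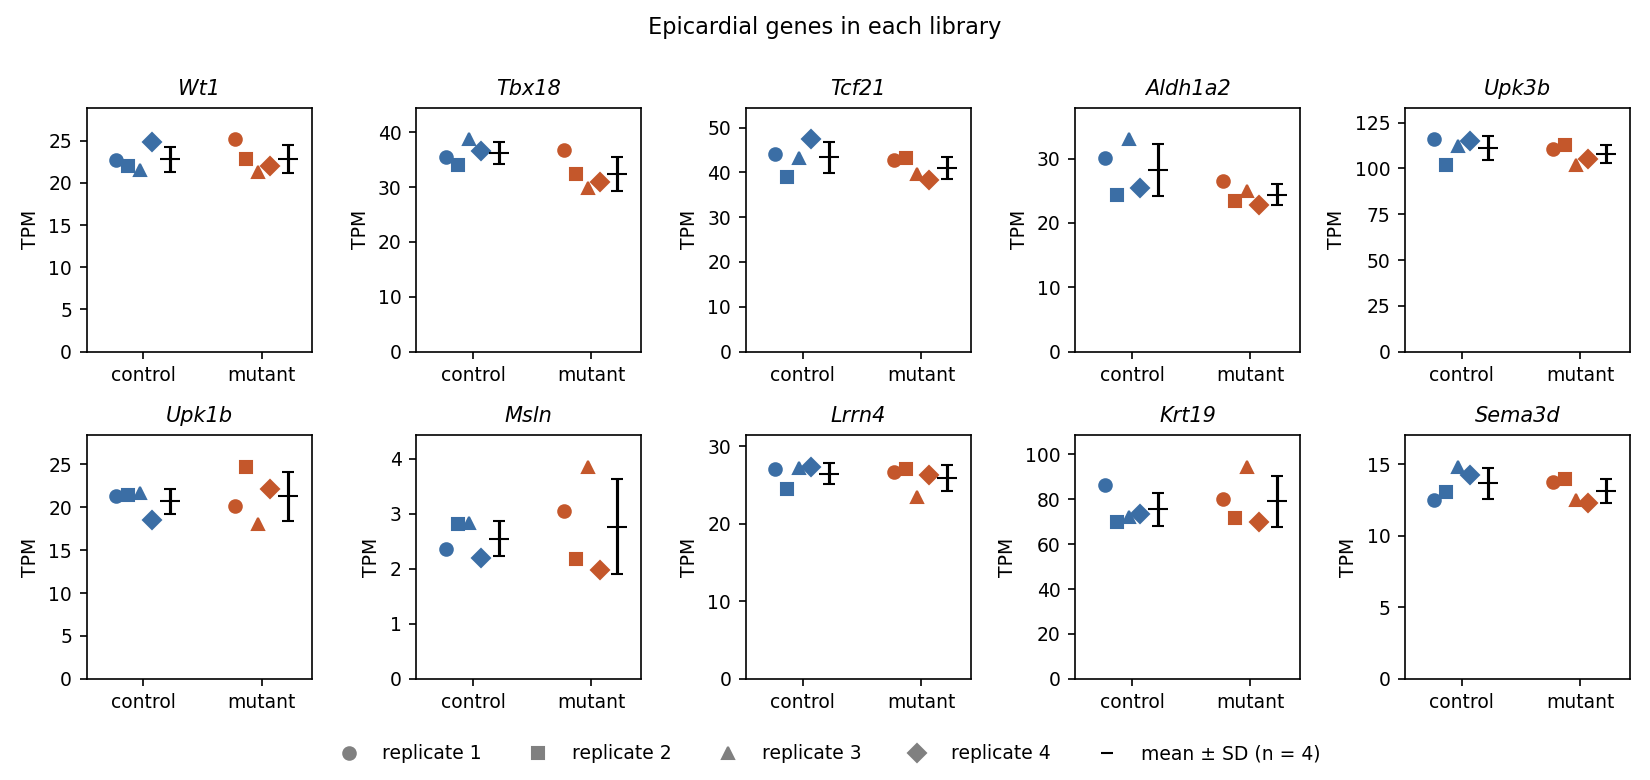
TPM of the 10 epicardial genes (vertical axes, each from 0) in the 4 control and 4 mutant libraries, with the marker shape giving the replicate number and the black bar the mean ± SD of 4 libraries. The mutant and control points overlap in all 10 panels, and Tbx18 and Aldh1a2 show the lowest mutant means relative to their controls, at 32.5 against 36.2 TPM and 24.4 against 28.2 TPM.

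The levels of the 10 genes spanned from Upk3b, at a mean of 109 TPM over the 8 libraries, to Msln, at 2.66 TPM. Upk3b exceeded 91.9% of the genes tested and Msln 15.5%. Below Upk3b came Krt19 at 77.2 TPM, Tcf21 at 42.2, Tbx18 at 34.3, Aldh1a2 at 26.3, Lrrn4 at 26.2, Wt1 at 22.8, Upk1b at 21.0 and Sema3d at 13.4 TPM. The range over libraries did not overlap between Upk3b and Krt19, Krt19 and Tcf21, Upk1b and Sema3d, or Sema3d and Msln. The other 5 neighbouring pairs overlapped. Within those, Tcf21 was above Tbx18, Tbx18 above Aldh1a2, and Lrrn4 above Wt1 in 8 of 8 libraries, while Aldh1a2 was above Lrrn4 in 3 and Wt1 above Upk1b in 5 of 8.

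Of the 3 transcription factors among the epicardial genes, Tbx18 had the lowest p of the 10, Tcf21 lay slightly lower in mutants within its spread, and the means of Wt1 were equal to 3 digits. Wt1 encodes a zinc finger factor that marks the epicardium from its formation (chromosome 2, bases 105126529 to 105173614, plus strand). Its control libraries, replicates 1 to 4, held 22.8, 22.0, 21.5 and 24.9 TPM and its mutant libraries 25.1, 22.8, 21.3 and 22.0 TPM. The highest and the lowest value both fell in the mutants, in replicates 1 and 3. Wt1 averaged 22.8 ± 1.48 TPM in controls and 22.8 ± 1.67 TPM in mutants (SD, n = 4 each). The difference was 0.00043 on the log2 scale, with a 95% interval from -0.14 to 0.14 (adjusted p of 1.00). A value this near 0 changed sign when control replicate 2 or 3 or mutant replicate 1 or 2 was left out, at -0.014, -0.026, -0.045 and -0.00070. Wt1os, a transcript that starts 18 bases away on the opposite strand and shares no base with Wt1, held 1.32 ± 0.172 TPM in controls and 1.38 ± 0.204 TPM in mutants.

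Tbx18 encodes a T-box factor of the proepicardium and epicardium (chromosome 9, bases 87702800 to 87731260, minus strand). Control libraries held 35.5, 34.1, 38.7 and 36.5 TPM, and mutant libraries 36.8, 32.3, 29.8 and 30.9 TPM. Mutant replicates 2, 3 and 4 were below all 4 controls, and mutant replicate 1 was above 3 of them. The means were 36.2 ± 1.95 and 32.5 ± 3.08 TPM (SD, n = 4 each). This gave a log2 fold change of -0.16, with a 95% interval from -0.31 to -0.0041, an unadjusted p of 0.0452 and an adjusted p of 0.809 (limma). Without mutant replicate 1 it was -0.22 with an adjusted p of 0.570, and over all 8 libraries left out in turn the adjusted p ran from 0.570 to 0.967.

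Tcf21 encodes a basic helix-loop-helix factor needed for epicardial cells to form cardiac fibroblasts (chromosome 10, bases 22817263 to 22820143, minus strand). Control libraries held 44.1, 38.9, 43.2 and 47.4 TPM and mutant libraries 42.8, 43.3, 39.6 and 38.4 TPM. The lowest value was in mutant replicate 4 and the next lowest in control replicate 2, so the groups were interleaved. Tcf21 had a log2 fold change of -0.078, with a 95% interval from -0.22 to 0.065 (adjusted p of 0.909). Gm10824, which shares bases with Tcf21 on the opposite strand, reached at most 0.977 TPM. Promoter windows are printed for the genes whose values the results turn on, here the factor with the lowest p and the one most closely correlated with Upk3b across libraries. They are the 250 bases before the RefSeq start site on GRCm38.p6, 5′ to 3′ on the gene's strand, at chr9:87731261-87731510 (minus) for Tbx18 and chr10:22820144-22820393 (minus) for Tcf21. Capitals mark the only match to any of the motifs searched, an AGATAA whose first base lies 31 bases before the Tcf21 start.
Tbx18: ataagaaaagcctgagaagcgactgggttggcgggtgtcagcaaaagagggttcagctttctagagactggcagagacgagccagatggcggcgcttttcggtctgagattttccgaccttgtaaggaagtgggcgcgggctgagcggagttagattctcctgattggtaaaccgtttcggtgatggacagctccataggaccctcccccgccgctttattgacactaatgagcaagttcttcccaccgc
Tcf21: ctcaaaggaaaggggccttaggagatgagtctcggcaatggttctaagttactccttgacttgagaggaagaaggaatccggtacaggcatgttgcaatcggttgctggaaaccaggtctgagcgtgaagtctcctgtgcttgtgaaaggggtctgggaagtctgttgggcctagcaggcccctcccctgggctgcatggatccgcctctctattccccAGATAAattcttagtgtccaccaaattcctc

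Aldh1a2 encodes the retinaldehyde dehydrogenase that makes retinoic acid in the epicardium (chromosome 9, bases 71215789 to 71296243, plus strand), and it had the most negative fold change of the 10 genes. Control libraries held 30.1, 24.4, 33.0 and 25.4 TPM and mutant libraries 26.5, 23.4, 24.9 and 22.9 TPM. Control replicates 1 and 3 were above every mutant, and control replicates 2 and 4 fell inside the mutant range. The means were 28.2 ± 4.05 and 24.4 ± 1.64 TPM (SD, n = 4 each). Their log2 difference was -0.19, with a 95% interval from -0.40 to 0.018, an unadjusted p of 0.0688 and an adjusted p of 0.841 (limma). Without control replicate 3 it was -0.12, and without control replicate 2 it was -0.26. The promoter window at chr9:71215539-71215788 (plus) is shown because Aldh1a2 stands apart in base composition. With the first 50 transcribed bases added it was 78.0% G and C, where the median of all such windows was 52.7%, and it held 50 CG dinucleotides. The other windows of these genes held between 2 and 15.
Aldh1a2: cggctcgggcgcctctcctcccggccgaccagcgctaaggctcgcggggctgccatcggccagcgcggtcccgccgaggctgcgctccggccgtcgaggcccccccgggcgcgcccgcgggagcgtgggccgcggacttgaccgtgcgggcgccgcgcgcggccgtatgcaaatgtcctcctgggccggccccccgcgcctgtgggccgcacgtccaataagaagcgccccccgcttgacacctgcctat

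The 4 genes for membrane proteins, Upk3b, Upk1b, Lrrn4 and Msln, all had fold changes whose intervals included 0. Upk3b and Upk1b encode uroplakins, proteins of the urothelial membrane plaque that mesothelium also makes. Upk3b (chromosome 5, bases 136038496 to 136044993, plus strand) held 116, 102, 112 and 115 TPM in controls and 110, 113, 102 and 105 TPM in mutants. Control replicate 2 and mutant replicates 3 and 4 were the low libraries. Its log2 fold change was -0.044, with the narrowest 95% interval of the 10 genes, from -0.16 to 0.069 (adjusted p of 0.942).

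Lrrn4 encodes a leucine-rich repeat membrane protein used as a mesothelial marker (chromosome 2, bases 132866686 to 132894010, minus strand). Controls held 27.0, 24.4, 27.1 and 27.4 TPM and mutants 26.7, 27.0, 23.4 and 26.3 TPM. Control replicate 2 and mutant replicate 3 were the 2 low libraries. Lrrn4 had a log2 fold change of -0.034 (95% interval from -0.17 to 0.097, adjusted p of 0.962), and it was 0.012 without mutant replicate 3. The end of Lrrn4 overlaps the end of Crls1, a gene on the opposite strand at a mean of 22.6 TPM, and whether counting used strand is not stated. Upk3b and Lrrn4 are shown by their promoter windows because this pair had the lowest p of all pairs of epicardial genes across libraries, at chr5:136038246-136038495 (plus) and chr2:132880863-132881112 (minus). The Lrrn4 start site of that window lies inside the listed feature, at base 132880862. Capitals mark GGAATG, read on the printed strand in Lrrn4 and as its reverse complement in Upk3b, with first bases 196 and 241 before the start.
Upk3b: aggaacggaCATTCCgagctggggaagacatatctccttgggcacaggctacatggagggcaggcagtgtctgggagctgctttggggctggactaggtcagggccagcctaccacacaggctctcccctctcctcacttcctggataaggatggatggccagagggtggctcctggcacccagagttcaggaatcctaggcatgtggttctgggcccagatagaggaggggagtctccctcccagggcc
Lrrn4: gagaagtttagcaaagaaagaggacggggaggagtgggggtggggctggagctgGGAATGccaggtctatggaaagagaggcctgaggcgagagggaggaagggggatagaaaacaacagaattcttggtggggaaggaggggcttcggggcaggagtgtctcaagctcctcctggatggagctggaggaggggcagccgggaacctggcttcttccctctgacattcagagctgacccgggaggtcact

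Upk1b (chromosome 16, bases 38773182 to 38800203, minus strand) held 21.3, 21.4, 21.6 and 18.5 TPM in controls and 20.2, 24.7, 18.0 and 22.1 TPM in mutants. Both extremes were mutants, replicate 2 at the top and replicate 3 at the bottom. Upk1b had a log2 fold change of 0.030 (95% interval from -0.18 to 0.24, adjusted p of 0.984). It turned to -0.042 without mutant replicate 2 and to -0.020 without control replicate 4.

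Msln encodes mesothelin, a surface glycoprotein of mesothelium that binds the mucin MUC16 (chromosome 17, bases 25748613 to 25754378, minus strand). It held 2.36, 2.81, 2.84 and 2.19 TPM in controls and 3.05, 2.19, 3.86 and 1.97 TPM in mutants. The mutants spread over a wider range than the controls, with replicate 3 highest and replicate 4 lowest of all 8. Msln had a log2 fold change of 0.063 (95% interval from -0.29 to 0.42, adjusted p of 0.977) and turned to -0.069 without mutant replicate 3. Muc16 itself ranged from 0.851 to 1.52 TPM.

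Krt19 and Sema3d complete the set. Krt19 encodes an intermediate filament keratin of simple epithelia (chromosome 11, bases 100140810 to 100145926, minus strand). It held 86.4, 69.8, 72.2 and 73.5 TPM in controls and 80.3, 71.6, 94.5 and 69.7 TPM in mutants. Mutant replicate 3 was the highest and mutant replicate 4 the lowest library, so the mutants enclosed all controls. Krt19 had a log2 fold change of 0.060 (95% interval from -0.16 to 0.28, adjusted p of 0.962) and turned to -0.029 without mutant replicate 3. Krt19 is made by other epithelia too, and in these libraries Epcam reached at most 0.663 TPM, Cdh1 at most 0.0689 TPM and the foregut marker Nkx2-1 at most 0.0011 TPM. Which cells of the tissue made Krt19 was not tested.

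Sema3d encodes a secreted semaphorin that guides endothelial and neural cells through neuropilin receptors (chromosome 5, bases 12383161 to 12588953, plus strand). It held 12.5, 13.1, 14.8 and 14.2 TPM in controls and 13.7, 14.0, 12.5 and 12.3 TPM in mutants. Control replicate 1 lay at the level of the 2 lowest mutants, so the groups overlapped. Sema3d had a log2 fold change of -0.053 (95% interval from -0.21 to 0.10, adjusted p of 0.947). Gm8925, inside Sema3d on the opposite strand, reached at most 0.815 TPM.

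**Figure D2:**
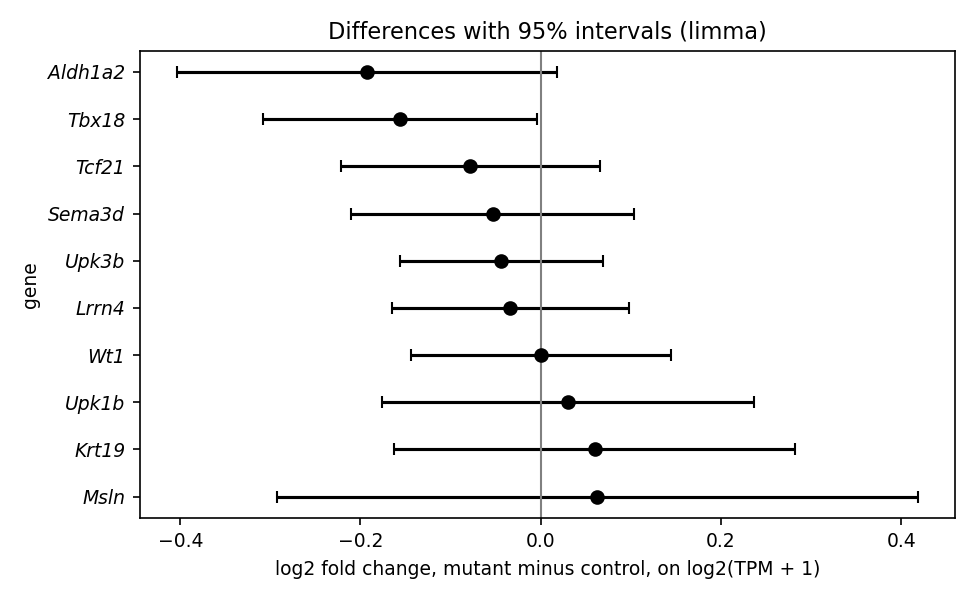
Log2 fold change of each epicardial gene (horizontal axis, mutant minus control on the log2(TPM + 1) scale) with its 95% interval from limma, genes in order of fold change. The interval of Tbx18, from -0.31 to -0.0041, is the only one that leaves out 0 before adjustment, and Msln has the widest, from -0.29 to 0.42.

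The promoter windows were searched on both strands for TGATGNAA, the core of the amino acid response element that ATF4 binds with C/EBP factors, and for GCGGGGGCG, a GC-rich element bound by WT1 and EGR1. Windows of 300 bases, 250 before and 50 after the start, were at hand for 6 of the 10 genes: Tbx18, Tcf21, Aldh1a2, Upk3b, Lrrn4 and Sema3d. No window was at hand for Wt1, Upk1b, Msln and Krt19. TGATGNAA was found in 0 of these 6 windows and in 3.97% of all 32851 promoter windows, and GCGGGGGCG in 0 of 6 and in 2.91% of all. Of 3 motifs added after values were seen, GGAATG, which TEAD factors bind, was in the windows of Upk3b and Lrrn4 and in 14.7% of all windows. AGATAA, which GATA factors bind, was in that of Tcf21 and in 11.2% of all, and AGGTGTGA, which T-box factors bind, was in 0 of 6 and in 1.28% of all. None of these motifs overlapped another in the 6 windows, and a match is a description of the letters only.

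The libraries of each genotype varied among themselves, and a few of them were low in many epicardial genes. The residual SD on the log2(TPM + 1) scale, which is the spread left within groups, ranged from 0.077 for Upk3b to 0.25 for Msln. Its median over the 10 genes was 0.103, and over all genes tested also 0.103. Mutant replicate 4 held the lowest value in 5 of the 10 genes (Tcf21, Aldh1a2, Msln, Krt19 and Sema3d) and mutant replicate 3 in 4 (Wt1, Tbx18, Upk1b and Lrrn4). Control replicate 2 was lowest in Upk3b and above the mean of the gene in 2 of 10. Control replicate 3 held the highest value in 3 genes, Tbx18, Aldh1a2 and Sema3d. Mutant replicate 1 was above the mean of the gene in 9 of 10, more than any control. Averaged over the 10 genes, libraries deviated from the overall mean by -0.10 in mutant replicate 4 to 0.073 in control replicate 3 on the log2 scale.

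**Figure D3:**
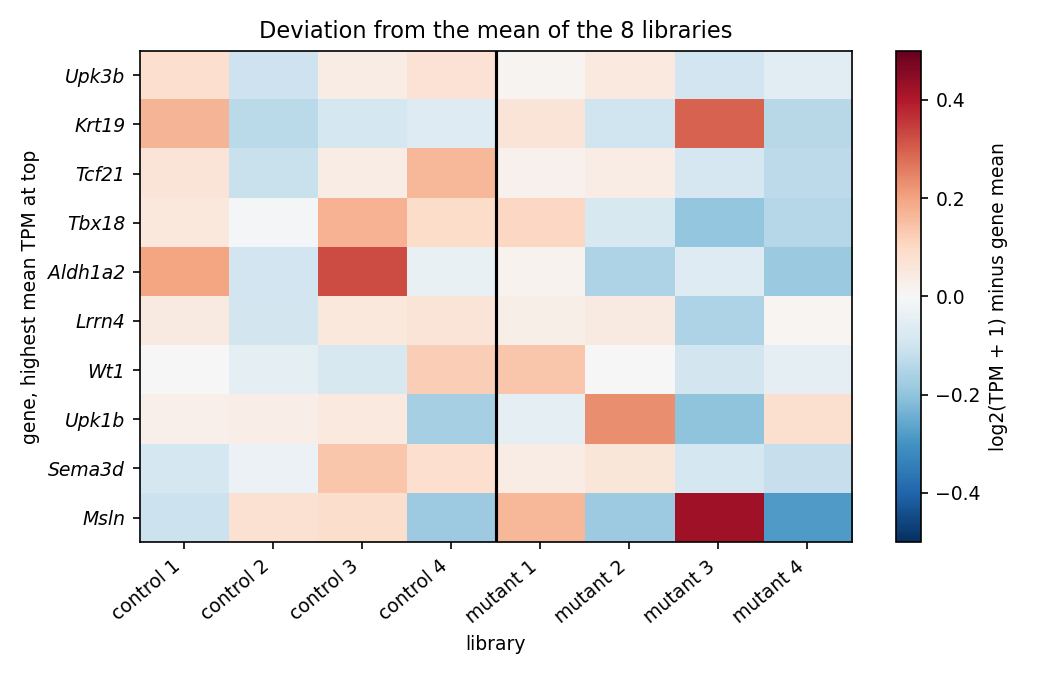
Deviation of each epicardial gene (rows, highest mean TPM at the top) from its own mean over the 8 libraries (columns, controls left of the line), in log2(TPM + 1) units given by colour. Mutant replicate 4 is low in most rows, mutant replicate 3 is low in most rows but high in Krt19 and Msln, and mutant replicate 1 is above the mean in 9 of 10 rows.

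Relations between the 10 genes were computed for all 45 pairs over the 8 libraries on the log2(TPM + 1) scale. Pearson's r was positive in 27 pairs and negative in 18, with a median of 0.22. None of the pairs passed after adjustment, a count of 0 of 45 at an adjusted p below 0.05 (exact permutation, two-sided, Benjamini-Hochberg), and 4 had an unadjusted exact p below 0.05. The lowest p was that of Upk3b with Lrrn4, with an r of 0.894 (exact permutation p of 0.00136, adjusted 0.0614) and a Spearman rho of 0.810 (exact permutation p of 0.0218, adjusted 0.209). Next was Tcf21 with Upk3b, with an r of 0.902 (exact permutation p of 0.00347, adjusted 0.0781) and a rho of 0.905 (exact permutation p of 0.00456, adjusted 0.205). Without the 2 libraries farthest from the median of the first gene r was 0.896 and 0.872. Within controls alone it was 0.967 and 0.910, and within mutants alone 0.867 and 0.864, each over only 4 libraries. The libraries share their scaling, so values of 2 genes in a library are not fully independent. The same 3 libraries, control replicate 2 and mutant replicates 3 and 4, were lowest in both Upk3b and Tcf21.

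**Figure D4:**
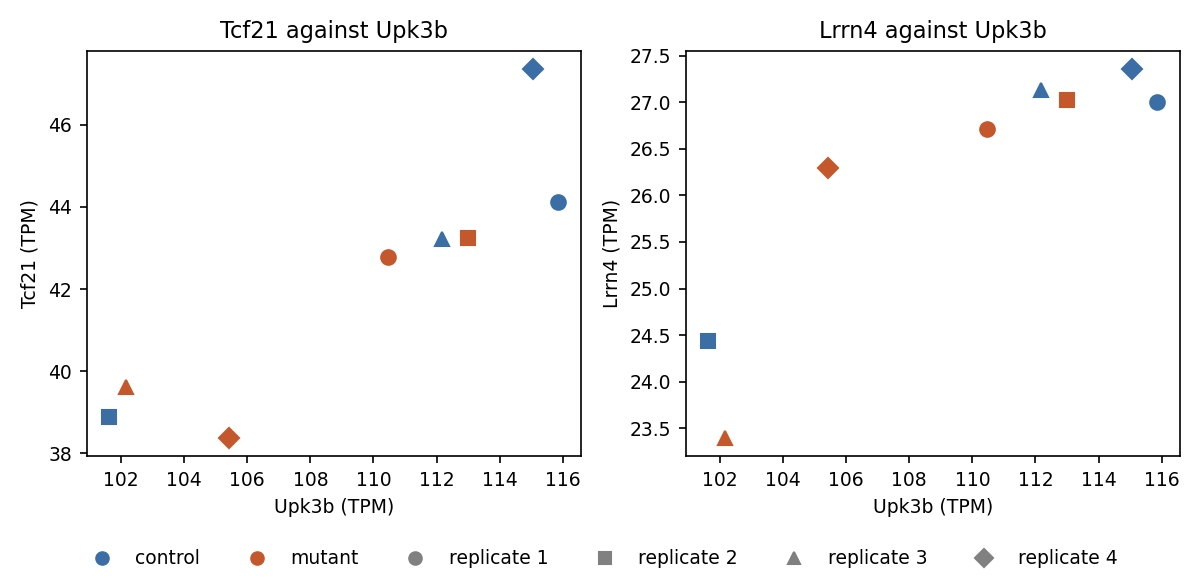
Tcf21 (left) and Lrrn4 (right) in TPM on the vertical axes against Upk3b in TPM on the horizontal axes, 1 point per library, colour for genotype and shape for replicate number; axes do not start at 0. Points of both genotypes lie along a common rise. On the log2(TPM + 1) scale r was 0.902 on the left and 0.894 on the right, neither past the threshold after adjustment over 45 pairs.

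Other genes of epicardium and mesothelium, outside the 10, also included none past the threshold. Of 24 such genes, 21 were expressed enough to be tested, and Bnc2, Anxa8 and C3 were not. The count past the threshold was 0 in either direction (limma, adjusted), against 0.0386% of all genes tested. At an unadjusted p below 0.05 it was 1 gene, against 6.10% of all. The same shares are the background for the counts in the lists that follow. Fold changes were positive for 9 genes and negative for 12, around a median of -0.0018. The gene with the unadjusted p below 0.05 was Podxl, for a sialomucin of the apical membrane that endothelium also makes. It was at 64.3 ± 2.31 TPM in controls and 68.8 ± 1.89 TPM in mutants (SD, n = 4 each). Podxl was thus 0.098 higher on the log2 scale, with an adjusted p of 0.806. The next were Alcam, an adhesion molecule, at 0.14, Ezr, for the membrane linker ezrin, at 0.065, and Gata6, a cardiac and mesothelial transcription factor, at 0.067, with adjusted p of 0.840, 0.843 and 0.849. Bnc1, the mesothelial zinc finger factor basonuclin 1, ranged from 7.89 to 9.16 TPM.

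Around Aldh1a2, the retinoic acid pathway was examined from retinol to receptor. Of 17 genes 13 were tested, and Aldh1a3, Stra6, Cyp26a1 and Cyp26c1 were too low. The count past the threshold was 0 and the count at an unadjusted p below 0.05 also 0 (limma), with 7 genes higher and 6 lower in value and a median log2 fold change of 0.012. Rdh10, which makes retinaldehyde, ranged from 3.70 to 5.54 TPM, and Cyp26b1, which degrades retinoic acid, from 2.93 to 4.21 TPM. Rarb, a receptor gene that retinoic acid itself induces, ranged from 16.3 to 19.7 TPM. Among the genes with the lowest p were Rxrg, a receptor partner, at a log2 fold change of 0.46, Aldh1a1, a second retinaldehyde dehydrogenase, at 0.19, and Crabp1, a retinoic acid carrier, at 0.33. Their adjusted p ran from 0.896 to 0.903. Rxrg was under 1 TPM on average in both groups, at 0.471 ± 0.703 and 0.980 ± 0.603 TPM (SD, n = 4 each).

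Genes of the epithelial to mesenchymal transition and of the cells that derive from the epicardium were measured in 19 of 20 cases, Cdh1 being too low. The count past the threshold was 0, as was the count at an unadjusted p below 0.05 (limma), with 8 higher and 11 lower in value and a median of -0.0098. The lowest p belonged to Acta2, smooth muscle actin, which the early myocardium also makes, at 988 ± 70.9 TPM in controls and 1057 ± 21.2 TPM in mutants, 0.10 higher on the log2 scale with an adjusted p of 0.841. Tgfb2, a growth factor that drives the transition, was at -0.076, Tagln, an actin-binding protein of smooth muscle, at -0.079, and Cdh2, the cadherin of heart muscle and mesenchyme, at 0.045, with adjusted p of at least 0.889.

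Signals between epicardium and myocardium comprised 25 genes, 20 of them tested. Fgf16, Fgf10 and Epo stayed low, and Fgf20 and Shh were listed at 0 in every library. In value 10 were higher and 10 lower, with a median of -0.0073. The count past the threshold was 0, with 1 gene at an unadjusted p below 0.05 (limma), against 0.0386% and 6.10% of all genes tested. That gene was Fgf2, a fibroblast growth factor, at 5.42 ± 0.206 TPM in controls and 4.30 ± 0.654 TPM in mutants (SD, n = 4 each), with a difference of -0.28 on the log2 scale (SE 0.095, unadjusted p 0.0145, adjusted p 0.780). Igf1, an insulin-like growth factor, was at -0.085, Bmp4, a bone morphogenetic protein, at 0.22, and Fgfr1, the receptor of several fibroblast growth factors, at 0.097, with adjusted p of at least 0.847. Igf2, a mitogen sent from epicardium to myocardium, ranged from 2710 to 3185 TPM.

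For Sema3d, the receptors and related ligands were compared, 12 genes with 11 tested and Sema3e too low. The count past the threshold and the count at an unadjusted p below 0.05 were both 0 (limma), with 4 higher and 7 lower in value and a median of -0.020. Sema3a, a related secreted ligand, was at 0.12 on the log2 scale (unadjusted p 0.0556, adjusted p 0.821). The plexin receptors Plxna3 and Plxna4 were at -0.16 and -0.086 and Sema3g, a further ligand, at 0.18, with adjusted p from 0.843 to 0.903. Nrp1, a neuropilin, ranged from 88.1 to 100.4 TPM.

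**Figure D5:**
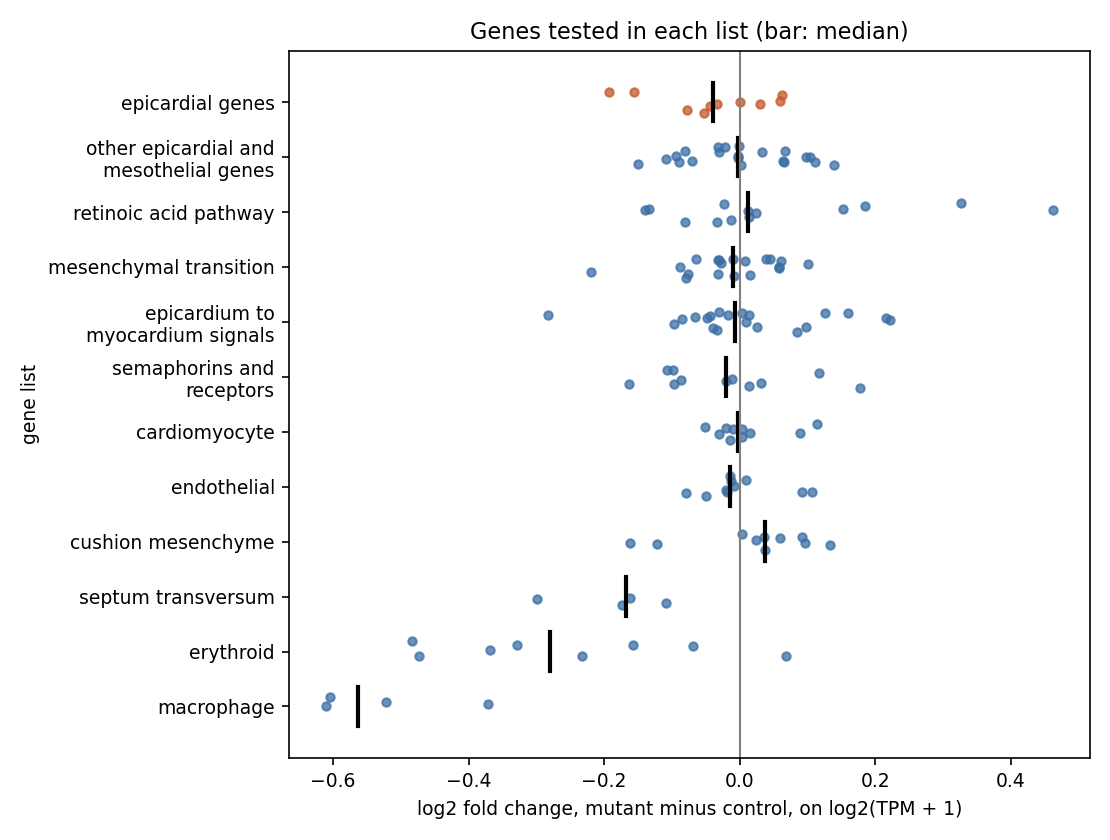
Log2 fold change (horizontal axis, mutant minus control on the log2(TPM + 1) scale) of each gene tested in the epicardial set (top row), the 5 related lists and 6 lists of other cell types, with a bar at each median. The median of the epicardial genes is -0.039 and those of the related lists lie between -0.020 and 0.012, while the septum transversum, erythroid and macrophage lists have medians of -0.17, -0.28 and -0.56.

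Markers of other cells in the ventricle were set beside these values. Endothelial markers, 10 of 10 tested, had a median log2 fold change of -0.014 and summed to 839 to 928 TPM in controls and 808 to 896 TPM in mutants. Cushion mesenchyme markers, 10 of 10 tested, had a median of 0.037, and cardiomyocyte markers, 10 of 10, a median of -0.0031. Septum transversum markers, from the tissue next to the proepicardium, were tested in 4 of 6 cases. All 4 were lower in mutants, with a median of -0.17, and none passed the threshold. Hlx had the lowest p of the 4, at -0.30 (unadjusted p 0.0270, adjusted p 0.806, limma). The 6 markers summed to between 8.11 and 9.72 TPM in controls and between 5.69 and 9.38 TPM in mutants. Their lowest library was mutant replicate 4, which was also the lowest in the mean of the epicardial genes, and the part of that tissue in the epicardial values was not tested. Lhx2, a transcription factor of its stellate cells, reached at most 0.0564 TPM, and the liver marker Alb at most 0.0272 TPM.

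Among these markers the lowest p belonged to genes of macrophages and red cells. The 6 macrophage markers, 4 of them tested, summed to between 6.36 and 12.7 TPM in controls and between 4.40 and 6.31 TPM in mutants. The highest mutant sum, 6.31 TPM in replicate 4, lay just below the lowest control sum, 6.36 TPM in replicate 4. Cx3cr1 and Mrc1, surface receptors of tissue macrophages, had log2 fold changes of -0.60 and -0.61 (adjusted p of 0.573 each, limma). These 2 of the 4 macrophage markers tested did not overlap between groups, against 3.68% of all genes tested, and they were named for their low p. Hba-a2, an adult-type alpha globin, was at -0.48 (adjusted p of 0.780, limma), the lowest p of the 8 erythroid markers. Of these markers 7 were lower and 1, Hbb-bh1 at 0.068, was higher in mutants, with a median of -0.28. The 8 markers summed to between 4530 and 7704 TPM in controls and between 4225 and 5846 TPM in mutants. The part of these cells in the values of the epicardial genes was not tested.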

How the data were processed

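RNA of 8 libraries was analysed, 4 control and 4 mutant, grouped by their titles. The values are TPM as deposited by the authors, 1 column per library. Per the submitters' processing notes, FastQC, Trim Galore 0.6.7, HISAT2 2.2.1, StringTie 2.2.1, featureCounts and DESeq2 were used on GRCm38 (mm10). Their roles, the annotation and the strand setting are not given in the sources used here. The design text and the sample protocol disagree on poly(A) selection or ribosomal RNA depletion. TPM keeps no depth, so no counting interval is given and the spread of 4 libraries is the error.

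The filter kept genes that reached 1 TPM in 4 or more libraries, and values were analysed as log2(TPM + 1), which understates the change of low genes. The genotypes were compared with limma 3.58.1 under R 4.3.3, with a variance trend on expression and without covariates, and two-sided p-values were adjusted over all 15545 genes at 0.05. The fit was tested on simulated data for this comparison over 15545 genes, with 200 genes shifted at once. It recovered 29% of the 200 when these were shifted by 0.3 (log2), 69% at a shift of 0.5, 95% at a shift of 1 and 0% at a shift of 0.2. In the data only 6 genes were called, so the adjustment was stricter there than with many shifted genes. The shares at 0.3 and above can therefore overstate what could be detected among the 10 epicardial genes. Pairs of genes were compared by exact permutation in Python 3.11.15 with scipy 1.17.1. Coordinates are those of the table and equal those of RefSeq on GRCm38.p6 for all 10 epicardial genes, and promoter sequences are RefSeq's on that build.

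The 10 genes and the lists were chosen with earlier results of these data known. Named are these 10, features that overlap them, Atf4, the 4 genes of each related list and the 3 markers of other cells with the lowest p; others were named after their values were seen, and 1 gene that the rule names is not reported here. The alternatives changed the pseudocount (0.1), the filter (none, or 5 TPM), the scaling (3 others), the variance model (no trend, or library weights), the design (replicate block, or endothelial marker mean as covariate) and the libraries, by leaving out 1 at a time.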

Additional observations from a re-analysis of the deposited data

Results flagged for a closer look

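Each epicardial gene was examined in each group of 4 libraries for a library that stood apart, by Dixon's test at the 95% level. This was the case in 2 of 20 groups, where chance gives about 1. The first was Upk1b, whose control replicate 4 held 18.5 TPM while the other controls held 21.3 to 21.6 TPM. The second was Lrrn4, whose control replicate 2 held 24.4 TPM while the others held 27.0 to 27.4 TPM.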

How the results depend on the processing

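The count of epicardial genes past the threshold was 0 in the 10 alternatives that kept all libraries and in the 8 that left out 1, and so were the counts in the 5 related lists. Over all genes the count of 6 became 0 with no filter, 0 with no variance trend, 0 with the replicate number as a block and 3 with the endothelial covariate, and lay between 0 and 3 with 1 library left out; the cause was not tested. The Atf4 call held in 6 of these 18 alternatives, with differences from 0.51 to 0.62 and adjusted p from 0.0120 to 0.354. Wt1 turned to -0.0046 with TPM rescaled without mitochondrial and haemoglobin genes and to -0.010 with weights per library. With 1 library left out, Wt1 lay between -0.045 and 0.041, Krt19 between -0.029 and 0.13, Msln between -0.069 and 0.17, Lrrn4 between -0.071 and 0.012 and Upk1b between -0.042 and 0.10, and the other 5 genes kept their sign. Msln was not tested with the filter at 5 TPM. Same-numbered libraries of the 2 groups correlated between -0.082 and 0.035 in their deviations from the group means. Of the same-numbered pairs, only control replicate 2 with mutant replicate 2, at 0.035, was the best match of either library. With 4 libraries per group this cannot settle whether the numbers pair libraries, and no label says what they mark. With the block, Tbx18 and Aldh1a2 each had an adjusted p of 0.886. Unknown depth limits Msln and the other low genes most.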
